A study of Mus musculus with 11 samples.

Results

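The genes described here are 10 interferon-induced antiviral effectors of the mouse, Ifit1, Ifit2, Ifit3, Ifit3b, Mx1, Mx2, Rsad2, Cmpk2, Ifi44 and Rtp4. They were chosen by name, and they are 10 of 19058 genes in the deposited count table. RNA was sequenced from whole lacrimal glands of male NOD mice, the nonobese diabetic strain, whose males develop lymphocytic inflammation of this gland. Each library came from 1 mouse. The 3 WT mice and the 5 Tlr7 KO mice were 20 to 22 weeks old, and no age of their own was given for the 3 Ifnar1 KO mice in the sources used here, beyond a span of 8 to 30 weeks over all mice of the study. The Tlr7 KO line carries a CRISPR/Cas9 deletion of 2 base pairs in a single allele that was fixed to homozygosity, and the Ifnar1 KO line is homozygous for the em16 allele. Both lesions are present in every cell, so no cell type is singled out by the design. A further Ifnar1 KO gland, which clustered with WT glands and was as inflamed, had been dropped by the authors and is not analysed here. The choice was made on its expression and inflammation, so every comparison with Ifnar1 KO describes the glands that were kept.

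TLR7 is an endosomal receptor for single-stranded RNA that signals through MyD88, and plasmacytoid dendritic cells and B cells are known to use it. Its activation can lead to type I interferon. Type I interferon binds the receptor IFNAR1/IFNAR2, and signalling through the kinases JAK1 and TYK2 then forms the transcription factor complex ISGF3, which holds STAT2 and IRF9. ISGF3 binds interferon-stimulated response elements near its target genes, of which the Ifit and Mx families are textbook examples. IFIT proteins bind viral RNA, MX proteins are dynamin-like GTPases that block viral components, and viperin (Rsad2) makes a chain-terminating nucleotide from CTP.

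The WT and knockout groups were compared to ask how much of the expression of these genes in the gland went with TLR7 and how much with the type I interferon receptor. All 10 genes were low in the Ifnar1 KO glands, at 5.68% (Mx1) to 15.9% (Ifi44) of their WT mean. Ifnar1 KO 2 was the highest mouse of its group in all 10, and without it the share was smaller in each, such as 1.12% for Mx1, 4.88% for Rsad2 and 9.13% for Cmpk2. In Tlr7 KO glands they were at 55.5% (Ifit3b) to 103% (Ifi44) of the WT mean. Relative to WT, 9 of the 10 fell in Ifnar1 KO (beside 12.4% of all genes tested) and none passed the test in Tlr7 KO (beside 17.4%). Between the knockouts, 8 of the 10 were lower in Ifnar1 KO (beside 0.926%). Each count depended on single libraries. In Tlr7 KO, 7 of the 10 fell without WT 2 (beside 25.6% of all genes). In Ifnar1 KO, none of the 10 passed when WT 1, WT 3, Ifnar1 KO 1 or Ifnar1 KO 3 was left out, but those fits called only 10, 88, 0 and 0 genes lower among all those tested. Between the knockouts, 2 to 6 passed when any single mouse but Ifnar1 KO 2 was left out, beside 0.258% to 0.524% of all genes.

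All 10 genes had more than 30 counts summed over the WT mice, the minimum for testing, so none was lost to the filter on low values. This filter reads the WT mice alone, the group in which most of these genes were highest. Under edgeR's filterByExpr, which reads both groups, 8 of the 10 were tested in Ifnar1 KO relative to WT, without Mx1 and Mx2. All 8 were called, beside 12.7% of all genes called lower. The Ifit genes lie side by side on the plus strand of chromosome 19 (GRCm38, GENCODE M21). Ifit2 spans chr19:34550694-34576419, Ifit3 chr19:34583531-34588731, Ifit3b chr19:34607970-34613401 and Ifit1 chr19:34640871-34650009. Mx1 (chr16:97447035-97462907, minus strand) and Mx2 (chr16:97535308-97560900, plus strand) are separated by 72400 bp. The same chromosome carries Rtp4 (chr16:23520291-23614222, plus strand), and Ifnar1 itself lies 5.94 Mb from Mx1. Rsad2 (chr12:26442746-26456452, minus strand) and Cmpk2 (chr12:26469204-26479837, plus strand) are neighbours transcribed away from each other, with 12751 bp between them. Ifi44 is at chr3:151730922-151749960 on the minus strand. The counts are summed over all exons of a gene.

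Promoter sequence from RefSeq (GRCm38.p6) was found for 7 of the 10 genes, with no entry for Mx1, Mx2 and Rtp4. The 250 bases before each start site were searched on both strands for GAAANNGAAA, the core of the interferon-stimulated response element. It was present in 4 of the 7, namely Ifit1, Ifit3, Ifit3b and Rsad2, and in 2.98% of the 32851 promoters of the table (3.46% of 27025 genes). The matches were all on the strand opposite to the gene, so they read TTTCNNTTTC below. No match was found for Ifit2, Cmpk2 and Ifi44 in this window. The bases from 200 to 51 upstream of the start site are shown for the genes with a match, 5′ to 3′ along the gene, with the matches in capitals, because they hold the motif that these 4 genes share. Those of Ifit1 are chr19:34640689-34640838 (plus strand), of Ifit3 chr19:34583329-34583478 (plus), of Ifit3b chr19:34607757-34607906 (plus) and of Rsad2 chr12:26456503-26456652 (minus).
Ifit1: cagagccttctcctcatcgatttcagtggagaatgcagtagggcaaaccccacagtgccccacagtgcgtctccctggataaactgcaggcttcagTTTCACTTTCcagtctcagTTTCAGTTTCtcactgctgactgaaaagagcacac
Ifit3: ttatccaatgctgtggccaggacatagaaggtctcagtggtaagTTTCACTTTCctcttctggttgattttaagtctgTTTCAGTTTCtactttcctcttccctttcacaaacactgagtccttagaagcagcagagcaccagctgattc
Ifit3b: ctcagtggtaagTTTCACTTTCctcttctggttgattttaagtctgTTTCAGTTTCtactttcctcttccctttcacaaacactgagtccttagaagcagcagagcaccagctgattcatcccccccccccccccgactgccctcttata
Rsad2: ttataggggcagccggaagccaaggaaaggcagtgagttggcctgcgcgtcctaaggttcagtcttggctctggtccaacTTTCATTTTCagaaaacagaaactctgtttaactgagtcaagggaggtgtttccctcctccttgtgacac
Ifit1, Ifit3 and Ifit3b each held 2 matches, TTTCACTTTC followed by TTTCAGTTTC. Their starts were 34 bases apart in Ifit3 and Ifit3b and 19 bases apart in Ifit1. In Ifit1 the second match ended 76 bases from the start site. The single match of Rsad2, TTTCATTTTC, ran from 120 to 111 bases upstream. A match describes the sequence and not binding, which was not measured here.

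Libraries held 20512315 to 28814250 counts, and 3 counts in a library corresponded to 0.082 to 0.158 CPM (counts scaled to the library total with TMM factors). WT 2 stood apart from the other WT mice. Its summed B cell markers were at 60.0 CPM against 210 in WT 1 and 178 in WT 3, and its T cell markers at 15.5 CPM against 49.5 and 39.1. Salivary gland markers summed to 3120 CPM in WT 3, 2740 in Ifnar1 KO 2 and 222 in Ifnar1 KO 1, and to 0.842 to 3.54 CPM in the other mice. All 8 lacrimal epithelial markers were detected, with sums of 1030 to 1270 CPM in WT, 1520 to 1580 in Tlr7 KO and 1520 to 1740 in Ifnar1 KO. Neither targeted gene's RNA sets its own line apart. Tlr7 fell in Tlr7 KO (0.494 to 0.949 CPM against 1.52 to 2.94 in WT, log2 fold change -1.62 ± 0.28 SE, adjusted p = 0.00364) and also in Ifnar1 KO (0.251 to 0.822 CPM, -2.10 ± 0.45 SE, adjusted p = 0.026). Ifnar1 was at 8.34 to 9.63 CPM in Ifnar1 KO, 8.34 to 11.2 in Tlr7 KO and 10.5 to 15.1 in WT. Reads of both genes thus remained in the mice that carry the lesion.

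Levels are compared between genes as CPM per kb of exon. In WT the order of the mean ± SD (n = 3) was Ifit3 (7.30 ± 4.92), Rtp4 (4.74 ± 2.29), Ifit1 (2.29 ± 1.62), Ifit3b (1.51 ± 1.03), Cmpk2 (1.19 ± 0.338), Ifit2 (0.916 ± 0.606), Rsad2 (0.841 ± 0.390), Ifi44 (0.692 ± 0.373), Mx2 (0.428 ± 0.323) and Mx1 (0.400 ± 0.290). In 8 of the 9 neighbouring pairs of this order the gap was smaller than the larger SD, and the exception was Rtp4 and Ifit1. Levels of all 10 were low, and the highest single count was 685, for Ifit3 in WT 3.

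The RNA-binding Ifit genes are described first. Ifit1, whose protein binds the 5′ end of viral RNA that lacks the host cap methylation, was at 9.09, 1.14 and 7.98 CPM in WT 1, WT 2 and WT 3. It was at 2.49, 5.91, 3.61, 2.1 and 3.54 CPM in Tlr7 KO 1 to 5, and at 0.272, 0.635 and 0.167 CPM in Ifnar1 KO 1 to 3. WT 1 and WT 3 lay above every Tlr7 KO mouse and WT 2 lay below every one, while all Ifnar1 KO mice lay below every other mouse. The log2 fold change relative to WT was -0.80 ± 0.54 (SE) in Tlr7 KO (95% interval -2.01 to 0.41, adjusted p = 0.28). For Ifnar1 KO the estimate was -4.09 ± 0.84 (adjusted p = 0.0247), or -4.77 without Ifnar1 KO 2. Between Ifnar1 KO and Tlr7 KO it was -3.27 ± 0.47 (adjusted p = 0.011).

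Ifit3, which binds IFIT1 and stabilises it, had the highest mean level per length of the 10 genes in WT and in Tlr7 KO (4.43 CPM per kb there, beside 3.73 for Rtp4). In Ifnar1 KO it was at 0.542 CPM per kb and Rtp4 at 0.692. Its levels were 16.6, 2.91 and 18.7 CPM in WT, 5.43, 12.3, 7.02, 4.98 and 8.87 CPM in Tlr7 KO, and 0.749, 1.42 and 0.670 CPM in Ifnar1 KO, in the order of the mouse numbers. The Ifnar1 KO mice did not overlap either other group, and WT 2 was again under all Tlr7 KO mice. It fell in Ifnar1 KO (-3.78 ± 0.71, adjusted p = 0.023), and its log2 fold change in Tlr7 KO was -0.74 ± 0.50 (adjusted p = 0.278). Among the 10 genes, Ifit3 had the lowest adjusted p between the knockouts (-3.02 ± 0.37, adjusted p = 0.00804).

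Ifit3b is a near-identical copy of Ifit3. Their longest open reading frames are both 1212 bases long and differ at 11 of them, an identity of 99.09%, and the longest stretch without a difference is 329 bases. The estimated counts share such reads between the copies, so the division of counts between Ifit3 and Ifit3b is uncertain. Ifit3b was at 3.80, 0.674 and 4.59 CPM in WT, 1.61, 2.22, 1.82, 0.947 and 1.79 CPM in Tlr7 KO, and 0.102, 0.710 and 0.293 CPM in Ifnar1 KO. Ifnar1 KO 2 exceeded WT 2, so these groups overlapped. Its log2 fold change was -0.87 ± 0.49 in Tlr7 KO (adjusted p = 0.196), -3.07 ± 0.83 in Ifnar1 KO (adjusted p = 0.0427) and -2.18 ± 0.50 between the knockouts (adjusted p = 0.0607). Without Ifnar1 KO 2 the last 2 were -3.98 (adjusted p = 0.0506) and -3.11 (adjusted p = 0.00819), so each crossed the threshold. DESeq2 called Ifit3b lower between the knockouts with all mice (-2.20, adjusted p = 0.000797). By contrast the identity of Ifit1, Ifit2 and Ifit3 to each other was 62.56% to 69.24%, with no identical stretch over 20 bases.

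Ifit2, an RNA-binding member also linked to cell death, was at 4.38, 0.927 and 5.49 CPM in WT. Tlr7 KO 1 to 5 had 1.80, 2.61, 1.90, 1.61 and 3.38 CPM, and Ifnar1 KO 1 to 3 had 0.170, 0.411 and 0.377 CPM. This was the only one of the 10 genes for which Tlr7 KO 2 was not the highest Tlr7 KO mouse. Its estimate in Tlr7 KO was -0.70 ± 0.46 (adjusted p = 0.27), and it fell in Ifnar1 KO (-3.53 ± 0.70, adjusted p = 0.0237). Ifnar1 KO relative to Tlr7 KO was at -2.81 ± 0.37 (adjusted p = 0.00933).

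The Mx GTPases had the lowest levels. Mx1, whose mouse protein acts in the nucleus against influenza viruses, was at 2.05, 0.253 and 2.24 CPM in WT (60, 6 and 82 counts). It was at 0.612, 1.17, 0.873, 0.947 and 1.0 CPM in Tlr7 KO, and had 1, 6 and 0 counts in Ifnar1 KO 1 to 3. Mx2, whose mouse protein is cytoplasmic, was at 2.36, 0.211 and 2.08 CPM in WT, 0.727, 1.78, 1.41, 0.782 and 1.16 CPM in Tlr7 KO, and 0.136, 0.373 and 0.0419 CPM in Ifnar1 KO. WT 2 had only 5 counts of Mx2 and lay under Ifnar1 KO 2. Mx1 fell in Ifnar1 KO (-4.10 ± 1.08, adjusted p = 0.0398), but the size of this difference turned on Ifnar1 KO 2, which had 6 of the 7 Mx1 counts of its group. Without that mouse the estimate was -6.08 (adjusted p = 0.0447). In the second count table all 3 Ifnar1 KO mice had 0 counts of Mx1, so its fitted value there, -7.94, depends on the prior count. Mx2 missed the threshold in edgeR (-3.08 ± 0.95, 95% interval -5.30 to -0.85, adjusted p = 0.06), and was at -4.04 without Ifnar1 KO 2 (adjusted p = 0.0736). DESeq2 called Mx2 lower (-3.09, adjusted p = 0.0106). So did edgeR without WT 2 (adjusted p = 0.00711), in the second table (0.0489) and with the 11 mice fitted together (0.0129), but not when any other single mouse was left out. In Tlr7 KO the log2 fold changes were -0.75 ± 0.52 for Mx1 (adjusted p = 0.298) and -0.43 ± 0.58 for Mx2 (adjusted p = 0.596). Both were lower in Ifnar1 KO than in Tlr7 KO, with log2 fold changes of -3.33 ± 0.64 for Mx1 (adjusted p = 0.0341, and -5.29 without Ifnar1 KO 2) and -2.62 ± 0.55 for Mx2 (adjusted p = 0.0454). The 2 coding sequences are 82.18% identical with an identical stretch of up to 140 bases, so some reads may fit both.

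Rsad2 and Cmpk2 form a pathway as well as a gene pair, since CMPK2 is a mitochondrial nucleotide kinase that helps to supply the CTP that viperin converts. Rsad2 was at 3.86, 1.86 and 5.22 CPM in WT, 2.03, 4.69, 3.64, 2.51 and 3.38 CPM in Tlr7 KO, and 0.272, 0.784 and 0.0837 CPM in Ifnar1 KO. Cmpk2 was at 5.06, 3.50 and 6.31 CPM in WT, 2.14, 4.56, 3.61, 1.81 and 2.38 CPM in Tlr7 KO, and 0.613, 1.42 and 0.293 CPM in Ifnar1 KO. Cmpk2 was the gene least affected by WT 2, where the mean of WT 1 and WT 3 was 1.62 times its level, compared with 10.5 times for Mx2. It was also the exception in that WT 2 was not under every Tlr7 KO mouse.
In Ifnar1 KO, Rsad2 fell by 3.27 on the log2 scale (SE 0.67, adjusted p = 0.0249) and Cmpk2 by 2.70 (SE 0.50, adjusted p = 0.023). Without Ifnar1 KO 2 these were -4.30 and -3.44. In Tlr7 KO, Rsad2 was at -0.18 ± 0.34 (adjusted p = 0.708) and Cmpk2 at -0.78 ± 0.31 (adjusted p = 0.0787). Without adjustment, Cmpk2 alone of the 10 genes was under 0.05 in that comparison. The knockouts differed in Rsad2 (-3.06 ± 0.51, adjusted p = 0.0216, and -4.10 without Ifnar1 KO 2). For Cmpk2 the difference missed the threshold in edgeR (-1.89 ± 0.47, 95% interval -2.94 to -0.84, adjusted p = 0.0799, but -2.64 and 0.013 without Ifnar1 KO 2), although every Ifnar1 KO mouse was under every Tlr7 KO mouse. DESeq2 called Cmpk2 lower in Ifnar1 KO than in Tlr7 KO (-1.91, adjusted p = 0.00179).

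Ifi44, an interferon-induced cytoplasmic protein, was at 5.68, 1.60 and 5.44 CPM in WT, 2.29, 8.65, 4.21, 2.39 and 4.22 CPM in Tlr7 KO, and 0.306, 1.08 and 0.628 CPM in Ifnar1 KO. Tlr7 KO 2 had the highest level of all 11 mice. Of the 10 genes, Ifi44 had the estimate nearest to 0 in Tlr7 KO, with a log2 fold change of 0.02 ± 0.50 (95% interval -1.10 to 1.14, adjusted p = 0.979), and its sign turned under other settings, such as -0.36 without WT 2. It fell in Ifnar1 KO (-2.69 ± 0.60, adjusted p = 0.0272) and was lower in Ifnar1 KO than in Tlr7 KO (-2.69 ± 0.54, adjusted p = 0.0385).

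Rtp4, a transporter protein that helps receptors reach the cell surface and is induced by interferon, was at 13.9, 4.59 and 11.8 CPM in WT. It was at 6.35, 13.2, 6.42, 4.86 and 8.87 CPM in Tlr7 KO and 1.26, 2.58 and 0.586 CPM in Ifnar1 KO. Tlr7 KO 2 lay between WT 1 and WT 3, and the Ifnar1 KO mice were under all others. The log2 fold change was -0.36 ± 0.38 in Tlr7 KO (adjusted p = 0.494), -2.80 ± 0.57 in Ifnar1 KO (adjusted p = 0.0248) and -2.41 ± 0.45 between the knockouts (adjusted p = 0.0299). Without Ifnar1 KO 2 the last 2 were -3.45 and -3.07.

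**Figure D1:**
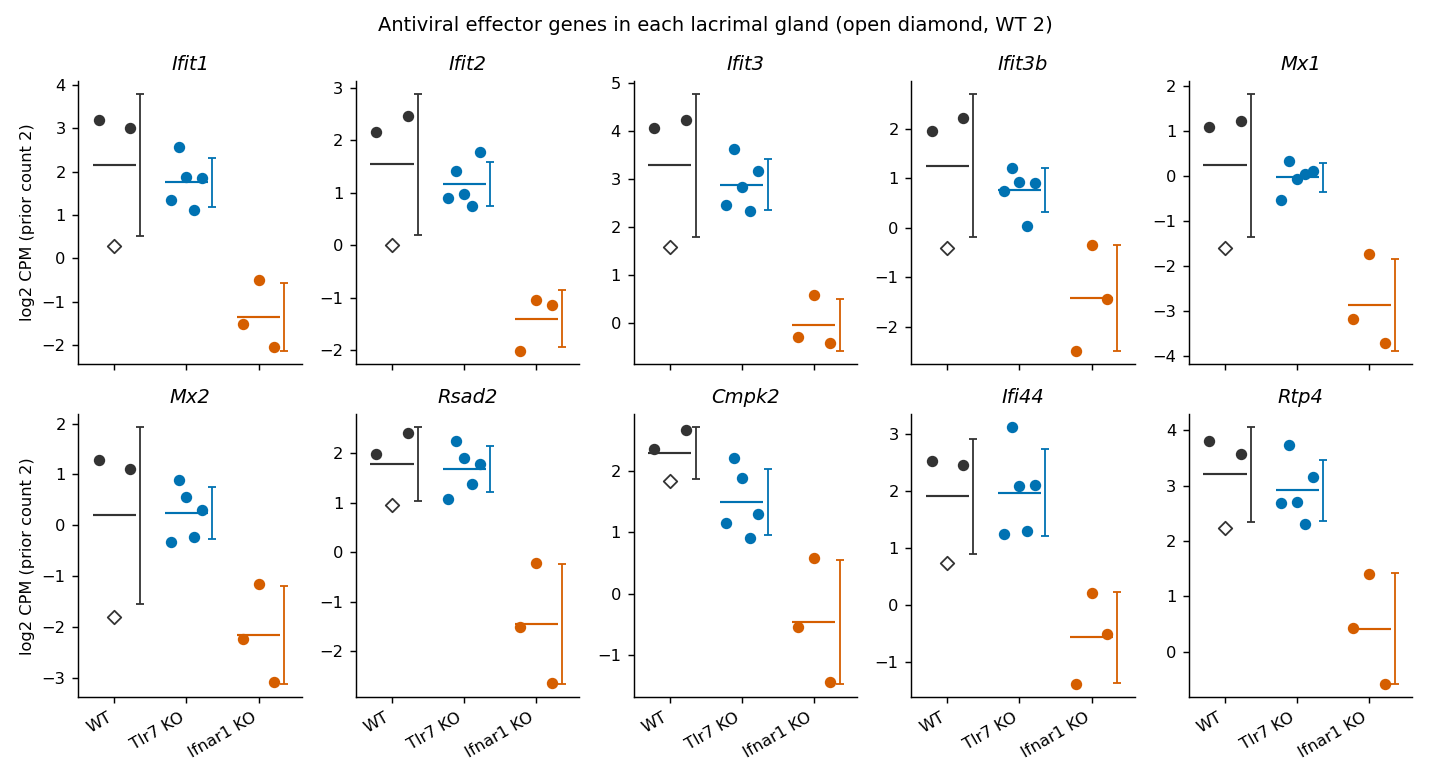
Level of each gene in each mouse, as log2 CPM with a prior count of 2. Each point is a mouse, the open diamond is WT 2, horizontal lines are group means and the bars beside them are ± SD. In 9 of the 10 panels WT 2 lies below all Tlr7 KO mice, and in all 10 the Ifnar1 KO mice lie below all Tlr7 KO mice.

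Counted together, edgeR's quasi-likelihood test called none of the 10 genes in Tlr7 KO (adjusted p under 0.05), and neither did DESeq2. Without adjustment, edgeR put 1 of them under 0.05. Over all 13937 genes tested, 17.4% were called lower in that comparison. Of the 10 genes, 9 had a negative estimate, with a median log2 fold change of -0.72 beside -0.04 over all genes. None had every Tlr7 KO mouse under every WT mouse, compared with 14.2% of all genes. With WT 2 left out, 7 of the 10 fell (all but Rsad2, Ifi44 and Rtp4) beside 25.6% of all genes, and the median was -1.06. The same 7 genes were those in which WT 1 and WT 3 lay above every Tlr7 KO mouse, which held for 29.9% of all genes. That separation rests on the same values as the calls. WT 2 was the lowest WT mouse in each of the 10 genes, and leaving it out moved their log2 estimates by -0.497 to -0.196. Without WT 2, the estimates of the 7 genes ran from -0.93 ± 0.33 for Mx2 (adjusted p = 0.0427) to -1.33 ± 0.26 for Ifit3b (adjusted p = 0.00288), with Ifit1 at -1.28 ± 0.31 (adjusted p = 0.00918). No WT mouse other than WT 2 gave a call when left out, but leaving out Tlr7 KO 2 gave 1 (Cmpk2, adjusted p = 0.0252), beside 16.9% of all genes. Scaling by library size alone gave 2, Ifit3b and Cmpk2, beside 30.7% of all genes called lower, and moved the median of all genes to -0.54.

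**Figure D2:**
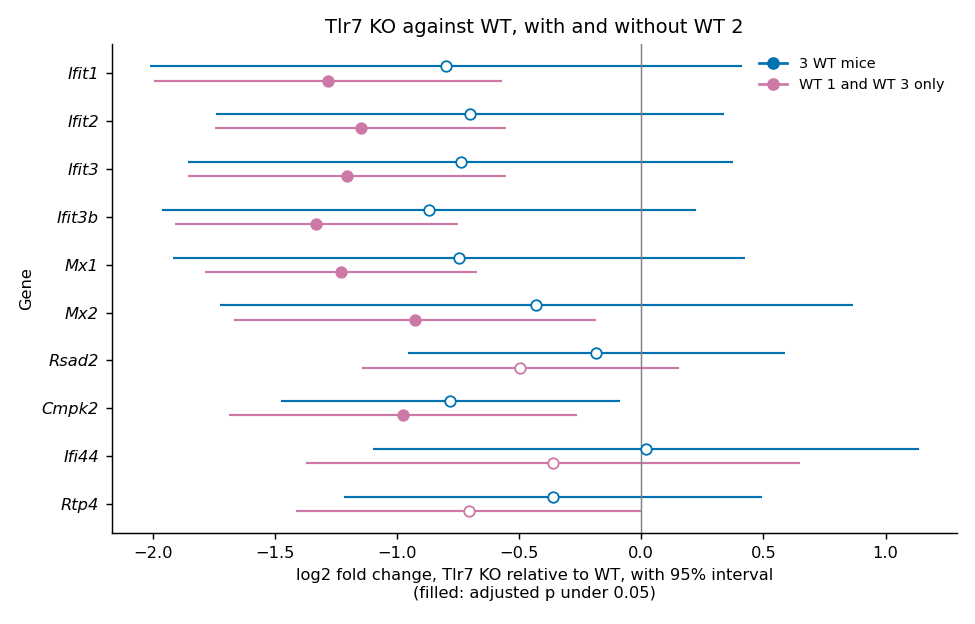
Log2 fold change of each gene in Tlr7 KO relative to WT, with its 95% interval, from all 3 WT mice and from WT 1 and WT 3 alone. Filled points have an adjusted p under 0.05. There are none with 3 WT mice and 7 without WT 2, and the intervals become narrower for the Ifit and Mx genes.

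In Ifnar1 KO, 9 of the 10 fell, beside 12.4% of the genes tested, and the median log2 fold change was -3.17 beside -0.02 over all genes. DESeq2 called all 10, beside 15.0% of all genes called lower. In 8 of the 10, all but Ifit3b and Mx2, every Ifnar1 KO mouse was under every WT mouse, which held for 21.1% of all genes. Without WT 2 all 10 fell, beside 20.8% of all genes, at adjusted p of 0.00221 to 0.00843. All 10 estimates kept an unadjusted p under 0.05 when WT 1, WT 3 or Ifnar1 KO 3 was left out, and 9 did without Ifnar1 KO 1, but none then passed the adjusted threshold. Almost no gene did in these fits, since 10 of 13114 genes were called lower without WT 1, 88 of 12903 without WT 3 and none of 13937 without Ifnar1 KO 1 or Ifnar1 KO 3. With WT 3 and Ifnar1 KO 2 left out together, the mice with the most salivary gland RNA, 3 passed (Rsad2, Cmpk2 and Rtp4), beside 3.19% of all genes, at a median log2 fold change of -3.67. The estimate of Ifit2 was smaller in size than with all mice (-3.32 beside -3.53), and those of the other effector genes were larger. Leaving out Ifnar1 KO 2 alone moved 7 of the 10 estimates by over 1.5 times (Ifit1, Ifit3b, Mx1, Mx2, Rsad2, Cmpk2 and Rtp4), each further from 0, and left 8 called, all but Ifit3b and Mx2, beside 8.26% of all genes. It moved the same 7 in the comparison of the knockouts. No other single mouse moved an effector gene that far in any of the 3 comparisons. The comparisons with WT share the same WT mice.

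Between the knockouts, which share no mice, 8 of the 10 were lower in Ifnar1 KO (all but Ifit3b and Cmpk2), beside 0.926% of all genes. DESeq2 called all 10, beside 2.37% of all genes called lower. In all 10 every Ifnar1 KO mouse was under every Tlr7 KO mouse, compared with 5.47% of all genes. The median log2 fold change was -2.75 beside 0.00 over all genes, and the estimates ran from -1.89 (Cmpk2) to -3.33 (Mx1). The WT mice enter this comparison only through the filter on low counts, and without Ifnar1 KO 2 all 10 passed, beside 3.72% of all genes. Leaving out Ifnar1 KO 1 left 2 (beside 0.258%) and Ifnar1 KO 3 left 4 (beside 0.294%). Leaving out Tlr7 KO 1 left 4 (beside 0.309%), and leaving out its group mates numbered 3 or 5 left 3 each (beside 0.316% and 0.33%). A single fit to the 11 mice left 1 (Rsad2), beside 0.301%. In each of these fits all 10 had an unadjusted p under 0.05. The exact ages of the Ifnar1 KO mice were not given in the sources used here, so age and genotype cannot be told apart in this comparison or in that of Ifnar1 KO with WT. Both comparisons also leave out the WT-like Ifnar1 KO gland that the authors dropped.

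**Figure D3:**
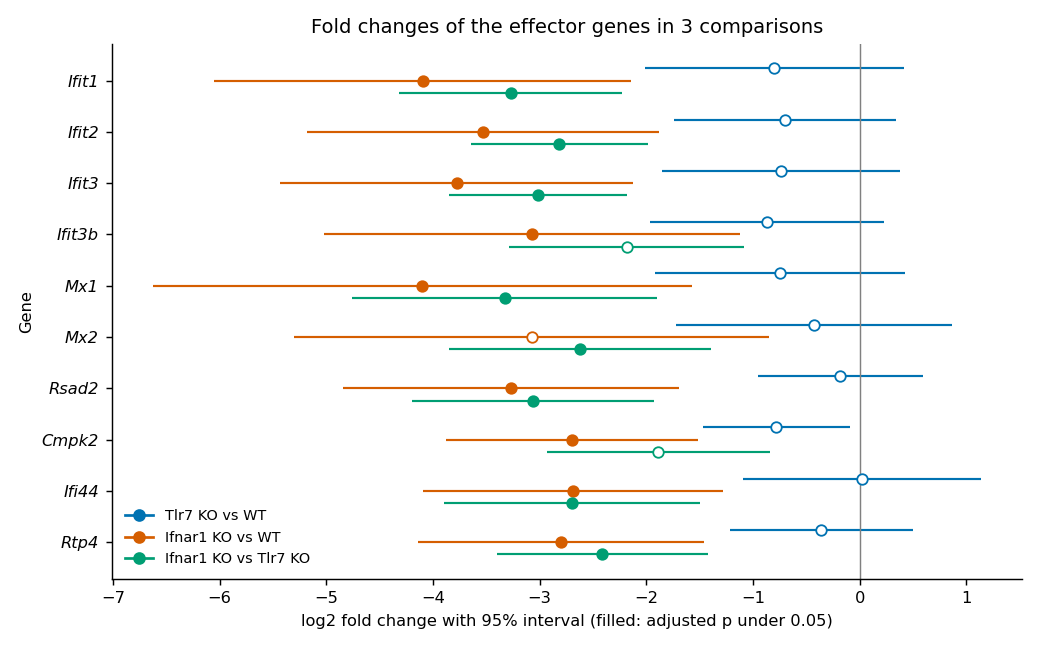
Log2 fold changes of the 10 genes with 95% intervals in the 3 comparisons. Filled points have an adjusted p under 0.05. The intervals of the Ifnar1 KO comparisons all lie below 0, and in Tlr7 KO relative to WT only that of Cmpk2 does.

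The genes varied together between mice of a group. The mean log2 CPM of the 10 genes was 2.44, 0.38 and 2.54 in WT, 1.08, 2.14, 1.57, 0.995 and 1.65 in Tlr7 KO, and -1.48, -0.22 and -1.70 in Ifnar1 KO. Tlr7 KO 2 was the highest Tlr7 KO mouse in 9 genes, and Ifnar1 KO 2 the highest Ifnar1 KO mouse in all 10. The lowest Tlr7 KO mouse was Tlr7 KO 4 in 6 genes and Tlr7 KO 1 in 4. Over the 45 pairs of genes, Pearson's r of the levels across the 11 mice was 0.845 to 0.996 (median 0.949), and r of the deviations from the group means was 0.38 to 0.988 (median 0.849). These values share libraries, and the groups themselves differ in level.

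Tlr7 KO 2 and Ifnar1 KO 2 were also the highest mice of their groups in B cell markers. The lowest Tlr7 KO mouse in those was Tlr7 KO 3, and in macrophage markers Tlr7 KO 2 (246 CPM) was near Tlr7 KO 5 (239 CPM). Summed B cell markers were 36.8 CPM in Tlr7 KO 2 and 4.29 to 15.0 in the other Tlr7 KO mice, and 15.5 CPM in Ifnar1 KO 2 against 7.72 and 1.88. Macrophage and monocyte markers summed to 264 to 465 CPM in WT, 198 to 246 in Tlr7 KO and 71.0 to 183 in Ifnar1 KO, sums in which Lyz2 had the largest share (a mean of 199 CPM in WT). This list was mixed, with 4 of its 8 genes lower than in WT in each knockout (Csf1r, C1qa, C1qb and Lyz2), 1 higher in each (Mertk, 0.46 and 0.63 with adjusted p = 0.0187 and 0.0344) and none called between the knockouts. In the sum of interferon gamma and its targets, Cd74 had the largest share (a mean of 694 CPM in WT and 176 in Tlr7 KO). Ifng itself was under the filter on low counts. WT 2 exceeded every Tlr7 KO mouse in the B cell and macrophage sums, and barely in that of interferon gamma and its targets (409 CPM against 150 to 408), but its T cell sum (15.5 CPM) was under that of Tlr7 KO 2 (19.2 CPM). It was under every Tlr7 KO mouse in 9 of the 10 effector genes. The effector genes were not alone in this. WT 2 was also under every Tlr7 KO mouse in the summed OAS genes (12.8 CPM against 16.4 to 42.5), RNA and DNA sensors (52.9 against 76.8 to 123), genes of feedback and amplification (16.8 against 21.1 to 58.2) and genes from the receptor to ISGF3 (106 against 136 to 169). It was not in the other antiviral effectors (183 CPM, with 4 of the 5 Tlr7 KO mice at 132 to 176 and Tlr7 KO 2 at 222) or the relatives of the Ifit, Mx and Ifi44 genes (4.09 CPM against 0.65 to 4.86). All 5 B cell and all 8 macrophage markers were detected in every group. The B cell list had 5 of 5 genes lower than in WT in each knockout, and the T cell list 4 of 6 in each, with none of either called between the knockouts. All marker counts here stand beside 17.4% of all genes called lower in Tlr7 KO, 12.4% in Ifnar1 KO and 0.926% between the knockouts. Without Ifnar1 KO 1 or Ifnar1 KO 3, no gene at all was called in Ifnar1 KO relative to WT. The marker lists were not counted with other single mice left out. Markers of plasmacytoid dendritic cells, known as high producers of type I interferon, summed to 7.80 to 18.6 CPM in WT, 3.27 to 7.34 in Tlr7 KO and 2.18 to 12.1 in Ifnar1 KO, and 3 of the 6 were lower than WT in each knockout. Klk1 of that list is also made by salivary gland. It was 1 of the 3 called in Tlr7 KO (-3.33, adjusted p = 0.0224), and its highest levels, 6.61 and 8.48 CPM, were in WT 3 and Ifnar1 KO 2, the mice with the most salivary gland RNA. Siglech, a defining marker of these cells, was called in neither knockout (adjusted p = 0.0555 in Tlr7 KO and 0.1 in Ifnar1 KO). Without Klk1 the list summed to 7.67 to 14.9 CPM in WT, 3.0 to 6.78 in Tlr7 KO and 2.13 to 3.59 in Ifnar1 KO. The part of these cells in the effector gene levels was not tested, and in whole glands fewer cells of a type and less RNA per cell cannot be told apart.

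**Figure D4:**
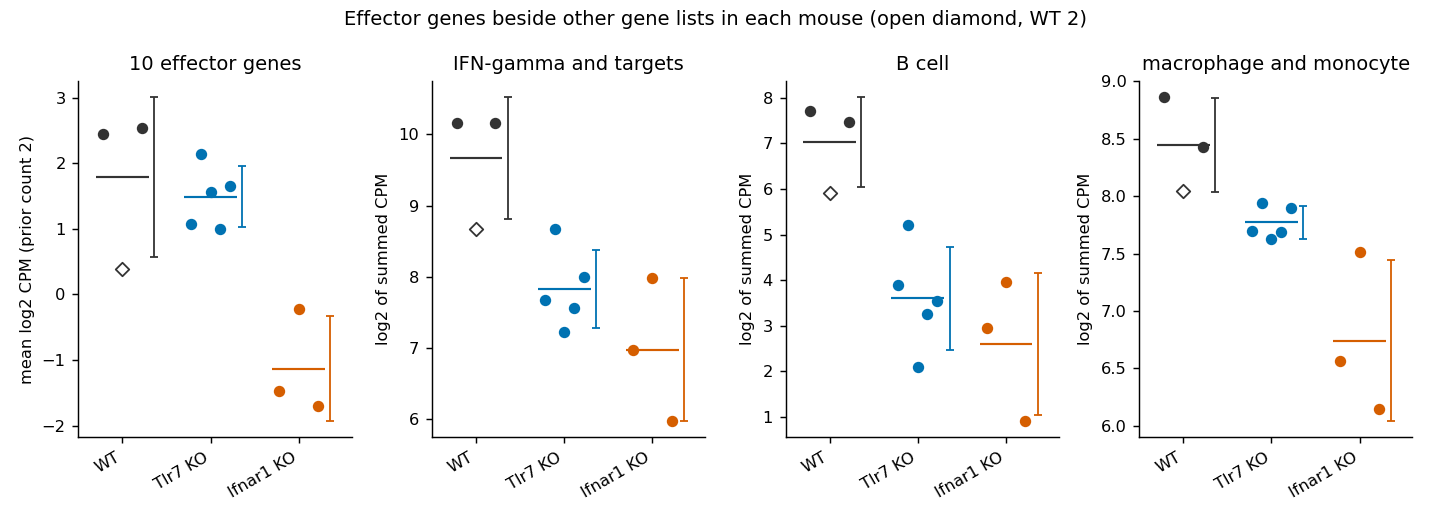
Mean log2 CPM of the 10 effector genes beside the log2 of the summed CPM of interferon gamma and its targets, B cell markers and macrophage and monocyte markers, in each mouse. Points, open diamond, lines and bars are as in the plot of the single genes. WT 2 is the lowest WT mouse in each panel, and of these 4 panels it lies below all Tlr7 KO mice in the first alone. Cd74 has the largest share of the interferon gamma sum (a mean of 694 CPM in WT), so that panel mostly shows this gene.

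Other genes of the pathway are given from lists written with earlier results of these data known. The counts of each list stand beside 17.4% of all genes called lower in Tlr7 KO, 12.4% in Ifnar1 KO and 0.926% between the knockouts, or 25.6% in Tlr7 KO without WT 2. Leaving out single mice was added for the lists after seeing the data. Without Ifnar1 KO 1 or Ifnar1 KO 3 no gene was called in Ifnar1 KO relative to WT, so the counts of all the lists were then 0. The ligands, 19 genes of type I and III interferons, were read from the second deposited table, in which 15 were matched. None had a count in WT or Ifnar1 KO, and 1 count of Ifnl3 in a Tlr7 KO mouse was the only one. RNA of these 15 ligands was thus not detected in WT glands at this depth, and the other 4 were not analysed here. The counting tool of the second table was not stated in the sources used here. How it treated reads that fit several genes is therefore not known.

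Between the receptor and ISGF3, 2 of 6 genes fell in Tlr7 KO (the receptor chains Ifnar1 and Ifnar2) and 3 of 6 in Ifnar1 KO (both chains and Irf9). The ISGF3 subunits Stat2 and Irf9 were lower in Ifnar1 KO than in Tlr7 KO (-1.31, adjusted p = 0.0342, and -1.45, adjusted p = 0.0169). In Tlr7 KO relative to WT, Irf9 was at -0.19 (adjusted p = 0.509) and Stat2 at -0.05 (adjusted p = 0.928). The kinases Jak1 and Tyk2 were called in no comparison. In Tlr7 KO, 3 of the 6 fell without WT 2 and none without WT 1 or WT 3. In Ifnar1 KO, 4 fell without WT 2 and none without WT 1 or WT 3. Between the knockouts none passed without Ifnar1 KO 1 or Tlr7 KO 5.

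Among genes of feedback and amplification, 1 of 5 fell in Tlr7 KO (Socs3, an inhibitor of cytokine signalling, -1.11, adjusted p = 0.031) and all 5 in Ifnar1 KO. The share in Tlr7 KO is near that of all genes, and it was 2 of 5 without WT 2 and 0 without any other single mouse but Tlr7 KO 2. In Ifnar1 KO the count was 0 without WT 1 and 1 without WT 3. Irf7, which amplifies interferon production, was at 23.6 ± 11.6 CPM in WT, 18.1 ± 9.04 in Tlr7 KO and 1.42 ± 0.849 in Ifnar1 KO. Irf7, the ubiquitin-like modifier Isg15 and its protease Usp18 were all lower in Ifnar1 KO than in Tlr7 KO, at -3.67, -2.92 and -3.33 (adjusted p = 0.00921, 0.029 and 0.0141), and these 3 calls became 1 without Ifnar1 KO 1 and 2 without Ifnar1 KO 3, Tlr7 KO 3 or Tlr7 KO 5.

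The OAS genes, whose family is known for enzymes that make 2-5A upon sensing double-stranded RNA, had no member called in Tlr7 KO and 7 of 8, all but Oas1b, called lower in Ifnar1 KO. Their sum in WT 2 was 12.8 CPM against 39.6 and 43.8 in the other WT mice, and without WT 2, 3 of the 8 fell in Tlr7 KO. The count in Ifnar1 KO was 8 without WT 2, but 0 without WT 1 or WT 3. Oas2 had no count in any Ifnar1 KO mouse. Oas1a was at 6.39 ± 2.55 CPM in WT, 9.06 ± 2.95 in Tlr7 KO and 0.865 ± 0.875 in Ifnar1 KO, and 5 of the 8 were lower in Ifnar1 KO than in Tlr7 KO, but 1 without Ifnar1 KO 1, 2 to 4 without the other single mice except Ifnar1 KO 2, and 7 without that mouse. Of 8 RNA and DNA sensors, none was called in Tlr7 KO and 3 fell in Ifnar1 KO, namely Ddx58 (RIG-I, -1.48), Dhx58 (LGP2, -2.29) and Zbp1 (-3.58), and Ddx58 and Dhx58 were also lower than in Tlr7 KO. Without WT 2, 4 of the 8 sensors fell in Tlr7 KO and 8 in Ifnar1 KO, and without WT 1 or WT 3 none fell in either. The 2 between the knockouts became 1 without Ifnar1 KO 1 or Ifnar1 KO 3, and 7 without Ifnar1 KO 2. Among relatives of the Ifit, Mx and Ifi44 genes, 2 of 5 could be tested, and Gvin1 fell in Ifnar1 KO (-2.42, adjusted p = 0.0466), a count of 1 that became 2 without WT 2 or Ifnar1 KO 2 and 0 without any other single mouse.

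A list of 13 other antiviral effectors had 5 lower in Tlr7 KO, 11 lower in Ifnar1 KO and 7 lower in Ifnar1 KO than in Tlr7 KO. Those that fell in Tlr7 KO were Ifitm1, Ifitm2 and Ifitm3, which hinder the entry of viruses into cells, with Samhd1, which removes nucleotides, and Epsti1. In Tlr7 KO, 11 of the 13 fell without WT 2, 7 without Tlr7 KO 2, 5 without Tlr7 KO 5, and 2 or 3 without any other single mouse. In Ifnar1 KO the count was 0 without WT 1 and 1 without WT 3. Between the knockouts it was 0 without Ifnar1 KO 1, 11 without Ifnar1 KO 2 and 1 to 4 without the others. Ifitm1 was at 1.59 ± 0.379 CPM in WT and 0.327 ± 0.188 in Tlr7 KO (-2.28, adjusted p = 0.00415). The tethering factor Bst2 fell in Ifnar1 KO (-2.52, adjusted p = 0.023), and its log2 fold change in Tlr7 KO was -0.48 (adjusted p = 0.275).

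Interferon gamma and its typical targets gave other counts. Of 10 tested genes, 9 fell in Tlr7 KO and all 10 in Ifnar1 KO, and none was called between the knockouts. Ifng itself was under the filter on low counts, and the receptor chains Ifngr1 and Ifngr2 were among the 10. The class II transactivator Ciita was at 20.4 ± 11.8 CPM in WT, 4.13 ± 1.66 in Tlr7 KO and 1.92 ± 1.52 in Ifnar1 KO, and the chemokine Cxcl9 at 28.2 ± 15.7, 5.34 ± 4.60 and 2.32 ± 3.20 CPM. The median log2 fold change of this list was -1.93 in Tlr7 KO, -3.19 in Ifnar1 KO and -1.18 between the knockouts, beside -0.72, -3.17 and -2.75 for the 10 effector genes. Without WT 2, all 10 tested genes of this list fell in Tlr7 KO with a median of -2.29, beside 7 of the 10 effector genes with a median of -1.06. The count of this list also depended on single mice. In Tlr7 KO it was 2 without WT 1 and 2 without WT 3, and 4 to 10 without single Tlr7 KO mice. In Ifnar1 KO it was 9 without Ifnar1 KO 2 and 10 without WT 2, and it was 0 when any other mouse was left out. Between the knockouts it was 4 without Ifnar1 KO 2, where the effector genes had 10, and 0 without any other mouse. Whether the lists differ was not tested.

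**Figure D5:**
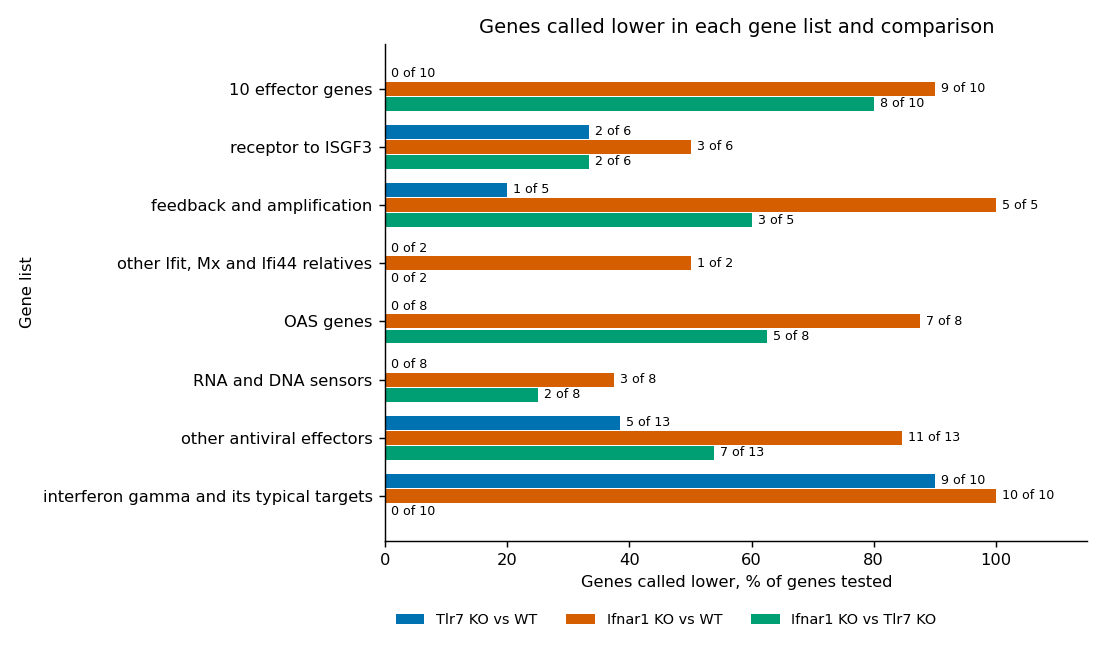
Share of tested genes called lower (adjusted p under 0.05) in each list and comparison, with the counts printed at the bars. The effector genes have 0, 9 and 8 of 10, and the interferon gamma list has 9, 10 and 0 of 10. Without WT 2 the effector genes have 7 in Tlr7 KO, and their 9 and 8 fell to as few as 0 and 2 when other single mice were left out. The interferon gamma list then had as few as 2 in Tlr7 KO and 0 in Ifnar1 KO, and up to 4 between the knockouts.

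The genes outside the list whose log2 CPM was most like the mean of the 10 over the 11 mice were Irf9 (Pearson's r = 0.988), Isg15 (0.984), Bst2 (0.983), Lgals3bp and Irf7 (0.98 each), Dhx58 (0.976), Oas3 (0.972), Apol9a and Oasl2 (0.97 each) and Fcer1g (0.969). When deviations from the group means were used, the leading genes were Osbpl7 and Csf1 (0.978 each), Fcer1g (0.976), Oas3 (0.975), Bcl3 (0.973), Gm26634 (0.972), Gsap (0.971), Xaf1 and Dpysl3 (0.968 each) and Trim30a (0.967). Fcer1g, the Fc receptor gamma chain of myeloid cells, and Oas3 were in both sets. These are descriptions over 11 mice that share the same libraries.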

How the data were processed

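Whole lacrimal glands of 3 WT, 5 Tlr7 KO and 3 Ifnar1 KO mice were sequenced by the authors on an Illumina HiSeq instrument. The authors used salmon for transcript abundances and tximport for gene totals, and the deposited table holds these estimated counts for 19058 genes as whole numbers. Its name calls them normalized, but its totals differ between libraries, so they were used as counts. A second deposited table of whole-number counts (39017 genes, 12233586 to 16621073 counts per library) served as an alternative. The submitters' processing notes name HISAT2 2.1.0. In total 1 column without a sample, a further Ifnar1 KO column of the second table, was not used.

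In R 4.3.3, genes with at least 30 counts summed over WT were tested with edgeR 4.0.16 (TMM, quasi-likelihood test) in separate fits of each pair of groups. The p-values were two-sided and adjusted by the Benjamini-Hochberg method over all genes tested. Intervals are 95%, and a floor of 3 counts covers counting error only. Log2 CPM used a prior count of 2. DESeq2 1.42.0 and other settings were tried. The test was also run on simulated counts, drawn with the same dispersion for every gene. That run does not show how the test performs on genes as variable between mice as these effectors. Named genes are the 10 effectors, Tlr7, Ifnar1, genes of the lists called in a comparison, and the 10 genes most alike by each measure. Others of the lists are named where the text contrasts them. The effector genes and lists were chosen with earlier results of these data known. Of the listed genes, 2 are not reported here and the lists were counted without them.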

Additional observations from a re-analysis of the deposited data

Results flagged for a closer look

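For 8 of the 10 genes, the effects of the knockouts differed by the direct test of Ifnar1 KO against Tlr7 KO (edgeR, adjusted p under 0.05). Over all genes, 0.926% were called lower in that test. The log2 differences were -3.27 for Ifit1, -2.81 for Ifit2, -3.02 for Ifit3, -3.33 for Mx1, -2.62 for Mx2, -3.06 for Rsad2, -2.69 for Ifi44 and -2.41 for Rtp4. All 3 Ifnar1 KO mice were under all 5 Tlr7 KO mice for each of them, which held for 5.47% of all genes and rests on the same values as the test. The 8 calls became 2 to 6 when any single mouse but Ifnar1 KO 2 was left out, and 1 when the 11 mice were fitted together. Age and genotype cannot be told apart in this comparison. In the Tlr7 KO group, the only one of 4 or more mice, no mouse was an outlier for any of the 10 genes by Dixon's test.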

How the results depend on the processing

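The count of effector genes called in Tlr7 KO relative to WT was 0 in the test reported, and 0 to 7 when each mouse was left out in turn. It was 2 with library size scaling, under which 30.7% of all genes were called lower and the median over all tested genes was -0.54. For Ifnar1 KO relative to WT it was 9, but 0 at an adjusted p under 0.01, 0 with glmTreat against 2-fold, 0 with a replicate block (settings that called 1, 0 and 0 of all 13937 genes lower), 3 with WT 3 and Ifnar1 KO 2 left out (an alternative chosen after seeing the data), and 0 to 10 with each mouse left out. Between the knockouts it was 8, but 2 at an adjusted p under 0.01, 0 with glmTreat, 1 when the 11 mice were fitted together (with 16, 4 and 42 of all genes called lower), and 2 to 10 with each mouse left out. Not every setting lowered these counts. For Ifnar1 KO relative to WT, all 10 were called by DESeq2, in the second count table and with the 11 mice fitted together. These settings called 15.0%, 12.6% and 19.1% of all genes lower. Between the knockouts, DESeq2 called all 10 (beside 2.37% of all genes), and 9 were called in the second count table (beside 0.973%). Library size scaling left both counts unchanged, at 9 and 8. Fewer genes pass a stricter threshold by its construction. The cause of the other losses was not tested. The log2 fold change of Ifi44 in Tlr7 KO (0.02) turned to -0.60 with library size scaling, -0.0035 with filterByExpr and -0.061 in the second table, and ran from -0.39 to 0.28 with each mouse left out. That of Rsad2 ran from -0.49 to 0.17. All called effector genes were lower in every setting. The sources used here do not say that the replicate numbers pair the mice. Over all groups, r of same-numbered mice was -0.44 to 0.34 over 9 pairs, beside -0.443 to 0.383 over 30 others. Between the knockouts alone, same-numbered mice had r of 0.064, 0.34 and 0.26, and the other pairs had -0.341 to 0.068. Whether the numbers pair the mice was not tested further. The block gave 0, 0 and 10 calls in the comparisons in the order above, beside 0.0861%, 0.0% and 2.64% of all genes called lower. The depth limits Mx1 most in Ifnar1 KO, with 0 to 6 counts per mouse, and its log2 fold change relative to WT had an SE of 1.08 and was -6.08 without Ifnar1 KO 2, beside -4.10 with all mice.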
